A study of Caenorhabditis elegans with 15 samples.

Results

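Worms raised with filtrate of a Microcystis aeruginosa batch culture were compared with worms raised with plain water, the control that the 2 lake samples of the same study also have. The comparison uses 6 of the 15 arrays of the study, the 3 titled as M. aeruginosa culture and the 3 titled as water control, and every probe set that is not an array control (22548). It therefore measures the medium and the culture together, whereas the study's own control for the culture was Z-medium. All worms were wild-type N2 Caenorhabditis elegans, kept at 20 °C on agar with OP50 bacteria and collected on day 1 of adulthood. The culture group had filtrate at 40% of the batch culture's original AOBr content (the labels' own measure, not spelled out there), mixed into agar and bacteria for the whole life of the worms, and the water group is labelled as a control with no exposure concentration. Arrays of Z-medium (3) and of the lake filtrates from August and October (3 each, at 200% of their original AOBr content) serve below only to place the culture values. Filtration and lyophilisation are described for the culture and lake samples, and for the water and Z-medium controls no such handling is given, so handling, medium and culture cannot be told apart against water. Each array measured total RNA of whole worms from 1 biological replicate, and cultures were raised in triplicate.

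Microcystis is a bloom-forming cyanobacterium of fresh water, and its filtrate holds what the cells released along with the salts of the growth medium. Worms meet such material mainly through the gut, whose cells make digestive proteases, lysozymes, C-type lectins and detoxifying enzymes. Foreign compounds are oxidised by cytochrome P450 enzymes, joined to sugars or glutathione by UDP-glucuronosyltransferases and glutathione S-transferases, and exported by ABC transporters, while metallothioneins bind metal ions.

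The values are linear signals of a single-channel Affymetrix array, scaled by the authors to a common level, and their precision is limited by the number of arrays. Log2 signals of the culture and water arrays correlated across probe sets at 0.950 to 0.964, against 0.956 to 0.963 among the culture arrays and 0.961 to 0.962 among the water arrays. Adult identity was checked with vitellogenins, the yolk proteins of adult hermaphrodites: the 5 genes measured summed to 90504 to 116652 on culture arrays and 86975 to 98140 on water arrays. The replicate 1 arrays stood apart. A principal component analysis put 37.97% of the variance on its first axis. There those of water, Z-medium, August and October lay at -28.9 to -21.8, the other arrays of these groups at -0.20 to 13.8, and the culture arrays at 11.96, 26.7 and 36.1. The labels name no batch, and each group holds 1 such array, so counts are also given without all 5.

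Between culture and water, 199 of 13529 probe sets passed the test (1.47%), 38 higher (0.281%) and 161 lower (1.19%) in the culture. The test was limma on log2 signals with Benjamini-Hochberg adjustment, and a probe set passed at an adjusted p under 0.05. The calls cover 33 genes that rose and 147 that fell, with 9 more probe sets that carry several gene names. Of the rises 16 and of the falls 46 were at least 2-fold, or 15 and 36 when group means below the filter were set at its level (a signal of 57.9). The rises had a median log2 change of 0.93 and the falls of -0.75. Culture and water arrays did not overlap for any of the 199, nor for 21.4% of all probe sets tested. The median log2 change over all probe sets tested was 0.0055, or 0.097 with the arrays scaled to a common median, where 132 passed and 28.8% of these were higher, against 19.1% of the 199. Without the 5 replicate 1 arrays 415 passed, 43 higher and 372 lower, with 141 of the 199 among them. Single arrays also mattered: leaving out culture replicate 2 gave 102 and culture replicate 3 gave 91, while leaving out water replicate 1 gave 84 and water replicate 2 gave 96. In whole worms, fewer cells of a type and less RNA per cell cannot be told apart.

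**Figure D1:**
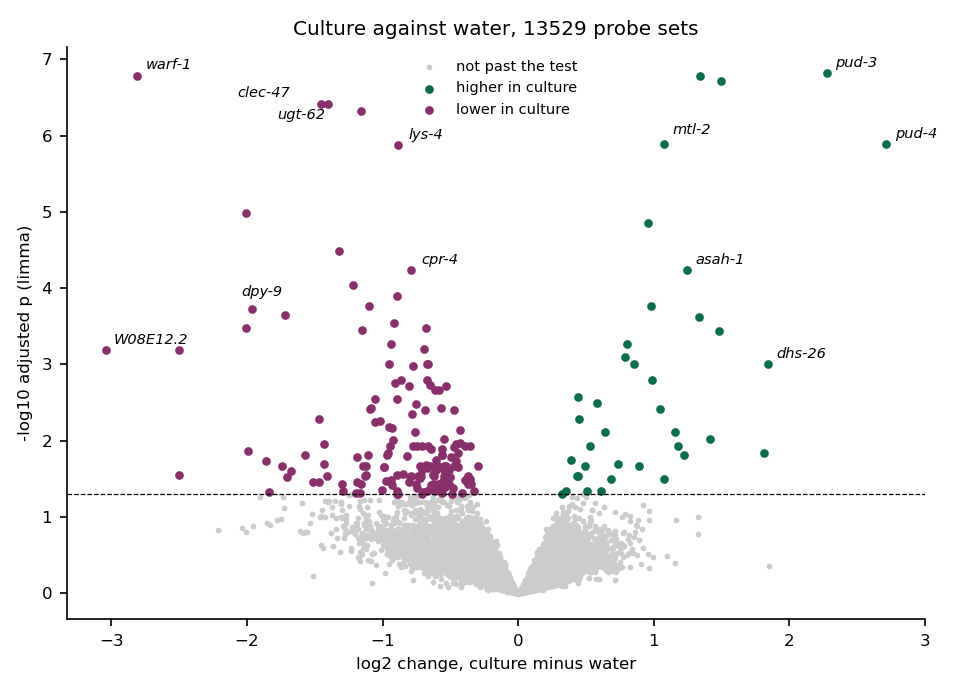
Log2 change of culture minus water (horizontal) against -log10 of the limma adjusted p (vertical) for 13529 probe sets. Green points are the 38 probe sets higher in the culture, purple points the 161 lower, and the dashed line marks an adjusted p of 0.05. Lower calls outnumber higher ones, while pud-3 and pud-4 lie farthest to the right.

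The largest rises were those of pud-4 and pud-3, of a small family first found as proteins more abundant in daf-2 insulin receptor mutants. The signal of pud-4 was 492, 525 and 642 on the 3 culture arrays, against 82.997, 79.6 and 88.2 on the 3 water arrays. Every culture array stood far above every water array, and the difference was 6.58-fold (log2 change 2.72 ± 0.21, adjusted p = 1.31e-06). For pud-3 the signals were 1508, 1953 and 1773 in the culture and 398, 306 and 374 in water, again with no overlap (4.86-fold; log2 change 2.28 ± 0.13, adjusted p = 1.51e-07). The short-chain dehydrogenase gene dhs-26 came next with 281, 262 and 149 in the culture, against 48.9, 59.5 and 81.7 in water. Culture replicate 3 was the lowest of its group but still lay above all water arrays (log2 change 1.84 ± 0.25, adjusted p = 9.96e-04). The acid ceramidase gene asah-1, whose enzyme splits ceramide in lysosomes, had 595, 533 and 704 in the culture and 236, 289 and 244 in water. Its groups were 2.38-fold apart (log2 change 1.25 ± 0.13, adjusted p = 5.80e-05). The infection response gene irg-4 had 1288, 951 and 1191 in the culture and 603, 603 and 455 in water, with every culture array above the water arrays (log2 change 1.05 ± 0.17, adjusted p = 0.00384). Also among the 15 largest rises were C50B6.7 (log2 change 1.48 ± 0.18, adjusted p = 3.61e-04), T22B7.7 (log2 change 1.33 ± 0.16, adjusted p = 2.42e-04), txt-4 (1.41, adjusted p = 0.00958), T16G1.7 (1.82, adjusted p = 0.0147) and Y92H12BR.3 (1.08, adjusted p = 0.0319). The remaining ones, mtl-2, clec-74, ugt-9, cyp-34A9 and cyp-35A5, are described with their families. The call ended with 1 array left out for txt-4 (adjusted p = 0.0575 without culture replicate 2), T16G1.7 (adjusted p = 0.0930 without water replicate 1) and Y92H12BR.3 (adjusted p = 0.176 without water replicate 1). With all 5 replicate 1 arrays left out it also ended for Y92H12BR.3 (0.125).

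The largest falls took several genes to signals below the filter, so their size is given as a bound and the order among these genes is not set. The signal of warf-1 was 61.2, 54.2 and 51.8 on the culture arrays and 438, 378 and 358 on the water arrays. All 3 culture arrays were far below the lowest water array, a fall of at least 6.73-fold (log2 change -2.81 ± 0.17, adjusted p = 1.63e-07). W08E12.2 had 10.2, 8.52 and 13.9 in the culture, against 89.9, 95.96 and 77.998 in water. It fell at least 1.51-fold, with the measured culture mean well under the filter (log2 change -3.04 ± 0.403, adjusted p = 6.46e-04). The cuticle collagen gene dpy-9 had 33.5, 32.2 and 48.96 in the culture and 166, 122 and 154 in water, a fall of at least 2.52-fold (log2 change -1.96 ± 0.23, adjusted p = 1.86e-04). T19C9.8 fell at least 1.96-fold (log2 change -2.499 ± 0.33, adjusted p = 6.46e-04) and Y41C4A.32 4.02-fold (log2 change -2.01 ± 0.25, adjusted p = 3.31e-04). The insulin-like peptide gene ins-35 fell at least 1.2-fold (-1.57, adjusted p = 0.0157), from a low level: its signals were 33.7, 28.3 and 13.2 in the culture and 76.01, 67.01 and 65.2 in water. The SWEET sugar transporter gene swt-6 had 69.99, 85.9 and 75.4 in the culture and 246, 391 and 164 in water, where the 3 arrays spread widely (log2 change -1.71 ± 0.37, adjusted p = 0.0301). Others were B0024.4 (-1.99, adjusted p = 0.0139), T06D8.10 (at least 1.45-fold, adjusted p = 0.0186), gmap-3 (-1.84, adjusted p = 0.0478), D2062.1 (at least 1.35-fold, adjusted p = 0.0214) and dbd-20 (-1.47, adjusted p = 0.0353). Leaving out 1 array ended the call for ins-35 (adjusted p = 0.0863 without water replicate 1), swt-6 (adjusted p = 0.134 without water replicate 2), B0024.4 (adjusted p = 0.0892 without water replicate 1), T06D8.10 (adjusted p = 0.120 without water replicate 1), gmap-3 (adjusted p = 0.250 without water replicate 1), D2062.1 (adjusted p = 0.132 without water replicate 1) and dbd-20 (adjusted p = 0.194 without water replicate 1). With all 5 replicate 1 arrays left out the adjusted p passed 0.05 for T06D8.10 (0.107) and swt-6 (0.0957).

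**Figure D2:**
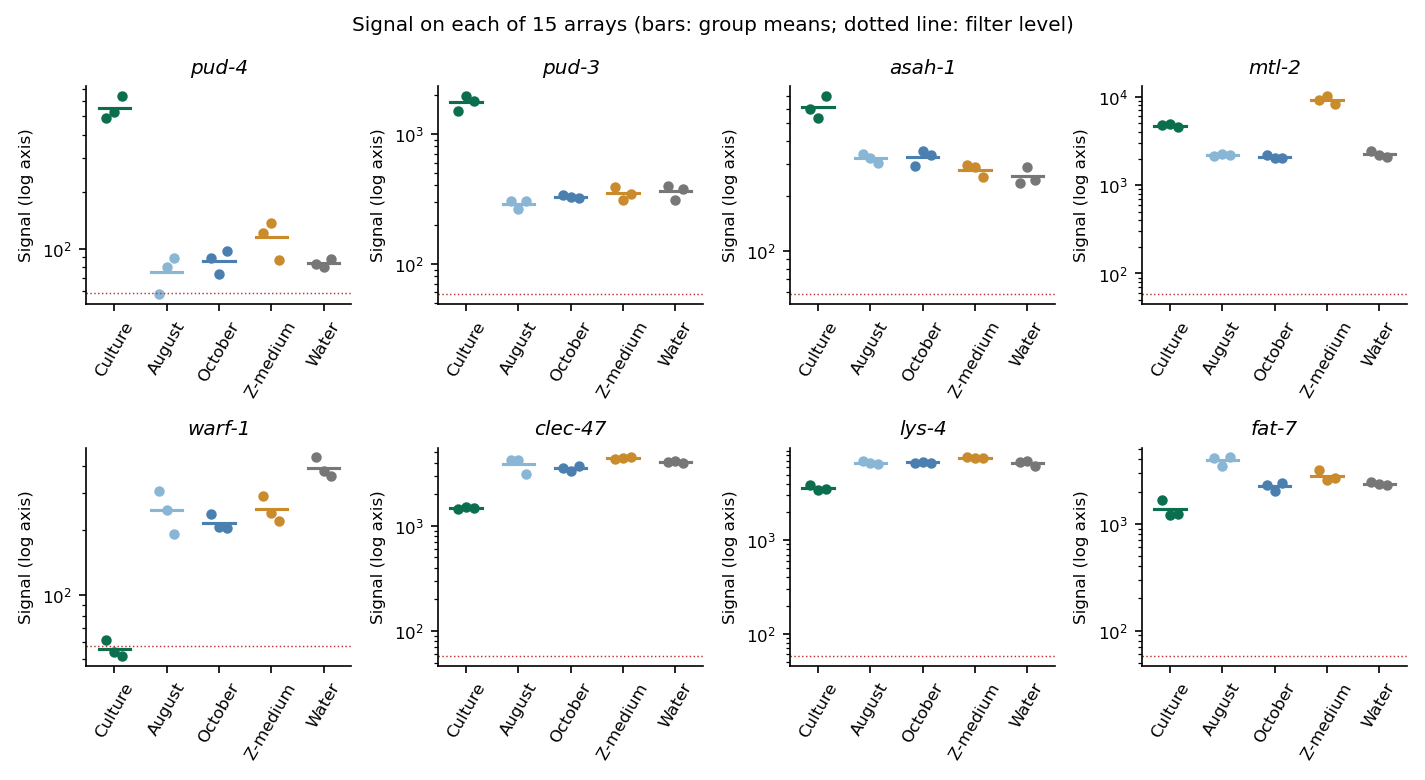
Signal (vertical, log axis) of 8 genes on each of the 15 arrays, by group, with points for arrays in replicate order, bars for group means and a dotted line at the filter level of 57.9. The culture arrays lie above all others for pud-4, pud-3 and asah-1 and below all others for warf-1, clec-47, lys-4 and fat-7, while for mtl-2 they lie between the Z-medium arrays and the rest.

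Since Z-medium is the study's control for the culture, its arrays show how far the choice of control matters. The difference between culture minus water and culture minus Z-medium is Z-medium minus water, so a test of that contrast is the test of the difference. It was passed by 3 of 13529 probe sets (0.0222%), all higher in Z-medium and all of 1 gene, mtl-2, which encodes an intestinal metallothionein. Culture minus Z-medium was passed by 209 (1.54%), 48 higher (0.355%) and 161 lower (1.19%). For Z-medium minus water an unadjusted p under 0.05 was found for 317, and outside mtl-2 the smallest adjusted p was 1.00, which does not show that the controls were alike. On its brightest probe set mtl-2 had 4789, 4860 and 4509 in the culture, 9143, 10212 and 8244 in Z-medium and 2403, 2217 and 2100 in water. The 3 groups did not overlap, and the culture lay between both controls. Against water mtl-2 rose 2.11-fold in the culture (log2 change 1.08 ± 0.081, adjusted p = 1.31e-06), while against Z-medium it was lower (log2 change -0.96 ± 0.081, adjusted p = 5.10e-06), and Z-medium exceeded water by 2.03 ± 0.081 (adjusted p = 9.99e-10). The other probe sets of the gene gave 0.96 and 0.99 for culture minus water, -1.046 and -1.37 for culture minus Z-medium, and 2.01 and 2.36 for Z-medium minus water. By the suffix of their names these probe sets may also bind related transcripts. August and October had mean signals of 2188 and 2065, beside 2240 in water.

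Of the 30 genes with the largest rises and falls, mtl-2 was the 1 whose sign differed between the water and the Z-medium control. For 7 of the 30, mtl-2 included, the 95% interval of Z-medium minus water, not adjusted for the number of genes, left out 0. The 30 were picked on a contrast with the same water arrays, which favours Z-medium values on the culture side. The C-type lectin gene clec-74 is an example: its signals were 127, 100.1 and 115 in the culture, 90.7, 97.4 and 76.1 in Z-medium and 55.4, 34.97 and 59.6 in water. It passed against water (at least 1.96-fold higher, adjusted p = 0.0157), while culture minus Z-medium was 0.37 ± 0.24 (adjusted p = 0.469) and the interval of Z-medium minus water ran over 0.34 to 1.35. For swt-6 the 3 Z-medium arrays read 111, 113 and 95.8, giving -0.47 ± 0.37 against Z-medium (adjusted p = 0.570) and an interval of -2.03 to -0.45 for Z-medium minus water. Rises that did not pass against Z-medium by limma included T16G1.7 (1.39, adjusted p = 0.0635), cyp-34A9 (0.78, 0.0729), cyp-35A5 (0.67, 0.0820) and Y92H12BR.3 (0.85, 0.0908). Rises that passed there included C50B6.7 (adjusted p = 3.48e-04), asah-1 (2.02e-04), irg-4 (0.00130), dhs-26 (0.0142) and T22B7.7 (0.0195). The fall of warf-1 also passed against Z-medium (-2.16 ± 0.17, adjusted p = 2.93e-06), whose arrays read 289, 241 and 222, between both other groups. By contrast pud-3 had 389, 311 and 343 in Z-medium, beside the water values, with an interval of -0.32 to 0.22 for Z-medium minus water. Among the 199 probe sets, the Z-medium mean was nearer water than culture for 192 and the culture arrays lay wholly beyond the Z-medium arrays on the same side for 193. Over the 199 the median absolute log2 change was 0.79 for culture minus water and 0.11 for Z-medium minus water. The 199 were picked on culture minus water, which favours a larger value for that contrast, so these figures do not measure the share of the medium. The probe sets among the 199 for which Z-medium lay nearer the culture were the 3 of mtl-2 and those of clec-74, swt-6, F28H1.4 and K08D8.6. Named after their values were seen, F28H1.4 had a log2 change of -1.16 (adjusted p = 0.0370) and K08D8.6 of -0.38 (adjusted p = 0.0337) against water. With 1 array left out the call ended for clec-74 (adjusted p = 0.0766 without water replicate 2), F28H1.4 (adjusted p = 0.187 without water replicate 1) and K08D8.6 (adjusted p = 0.157 without water replicate 1). Without the 5 replicate 1 arrays clec-74 did not pass either (adjusted p = 0.0685). The other probe sets of K08D8.6 were also negative and did not pass.

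**Figure D3:**
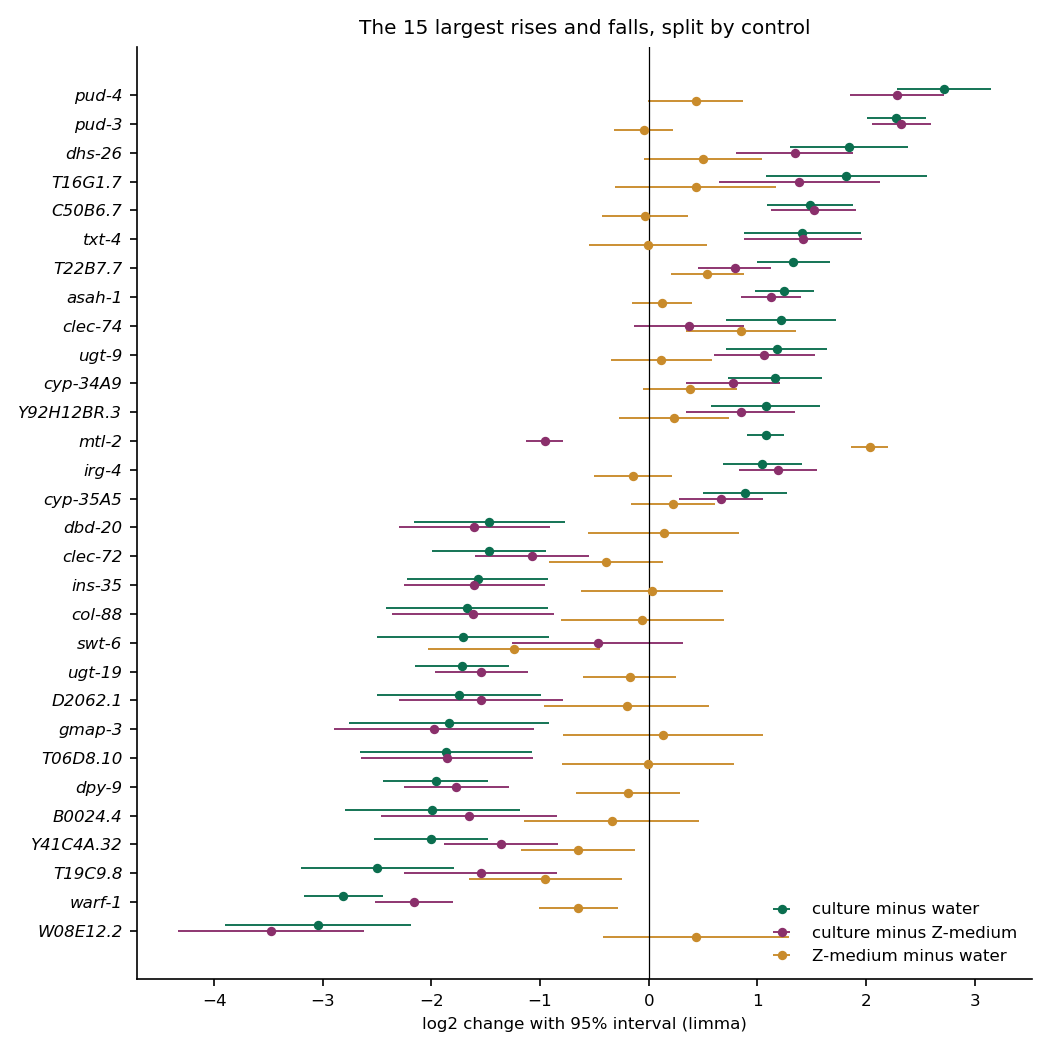
Log2 change with its 95% interval (horizontal) for the 15 largest rises and 15 largest falls of culture minus water, shown for culture minus water (green), culture minus Z-medium (purple) and Z-medium minus water (orange). Most orange intervals include 0, whereas mtl-2 has opposite signs against the 2 controls. Genes with a group mean under the filter are plotted as measured.

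Gene families were described by how many members passed on their brightest probe set, beside the 10259 genes tested: of these 1.6% passed, 0.302% higher and 1.3% lower, with a median log2 change of 0.0058. Detoxification genes passed in both directions with all arrays, while without the 5 replicate 1 arrays 0 rises remained past the test in the cytochrome P450 and 0 in the UDP-glucuronosyltransferase list. For cytochrome P450, of 36 genes tested, 3 rose, 1 fell and 32 did not pass, with a median log2 change of 0.15. The gene cyp-34A9 had 260.4, 166 and 224 in the culture, against 92.1, 101 and 93.5 in water, with all culture arrays above the water arrays (log2 change 1.16 ± 0.204, adjusted p = 0.00768). Of the CYP35 subfamily, known for induction by foreign compounds, cyp-35A2 had 1529, 1444 and 1404 in the culture and 669, 1068 and 1046 in water (log2 change 0.68 ± 0.15, adjusted p = 0.0321). Its relative cyp-35A5, with 161, 156 and 156 in the culture and 75.9, 76.5 and 106 in water, showed the same order (log2 change 0.89 ± 0.18, adjusted p = 0.0214). In contrast cyp-33C8 had 172, 221 and 158 in the culture and 337, 464 and 372 in water, a fall with no overlap (log2 change -1.09 ± 0.18, adjusted p = 0.00382). Against Z-medium cyp-35A2 and cyp-33C8 also passed by limma (adjusted p = 0.0343 and 0.00315), while cyp-34A9 and cyp-35A5 did not (0.0729 and 0.0820). For cyp-33A1, which read 2462, 2675 and 2547 on the August arrays, the culture arrays read 266, 218 and 227, against 234, 290 and 252 in water, and the groups overlapped (adjusted p = 0.627).

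Among UDP-glucuronosyltransferases, of 44 genes tested, 1 rose, 3 fell and 40 did not pass (median -0.21). The tightest value was that of ugt-62, with 972, 948 and 1003 in the culture and 2243, 2205 and 2095 in water. Both groups were narrow and 2.24-fold apart (log2 change -1.16 ± 0.08, adjusted p = 4.72e-07). The gene ugt-19 fell 3.29-fold (log2 change -1.72 ± 0.202, adjusted p = 2.28e-04) and ugt-17 1.59-fold (-0.67, adjusted p = 0.0462), whereas ugt-9 had 249.7, 248 and 198 in the culture and 99.4, 135 and 78.7 in water, a rise (log2 change 1.18 ± 0.22, adjusted p = 0.0119). Of 27 glutathione S-transferase genes the omega-class gene gsto-1 alone passed, lower at 119.8, 155 and 117 in the culture, against 241, 245 and 236 in water (log2 change -0.89 ± 0.14, adjusted p = 0.00285). Of 38 ABC transporter genes 2 fell and 0 rose: the P-glycoprotein gene pgp-9 (log2 change -1.02 ± 0.17, adjusted p = 0.00547) and pmp-5, of the peroxisomal transporter class (log2 change -0.44 ± 0.091, adjusted p = 0.0222). In the metal handling list 1 of 26 genes rose, mtl-2, and 2 fell. They were cdr-4 (log2 change -1.06 ± 0.16, adjusted p = 0.00285) and cdr-2 (log2 change -1.05 ± 0.18, adjusted p = 0.00574), of a family named for the cadmium response of its founding member. Of the other cdr genes cdr-1, the founding member, had 131, 141 and 138 in the culture and 91.8, 112 and 125 in water, with no overlap, and did not pass (0.33, adjusted p = 0.451), nor did cdr-6 (0.027, adjusted p = 0.905). For cdr-4 and cdr-2 Z-medium minus water was 0.004 and 0.11 (adjusted p = 1.00 for both). With 1 array left out the call ended for cyp-35A2 (adjusted p = 0.110 without water replicate 1), cyp-35A5 (adjusted p = 0.123 without water replicate 1), ugt-17 (adjusted p = 0.239 without water replicate 1), ugt-9 (adjusted p = 0.0624 without culture replicate 2) and pmp-5 (adjusted p = 0.132 without water replicate 1). With the arrays scaled to a common median the adjusted p was over the threshold for cyp-35A2 (0.0504), ugt-17 (0.0561) and pmp-5 (0.0932). Without the 5 replicate 1 arrays the adjusted p was over the threshold for all 4 rises named here, cyp-34A9 (0.0675), cyp-35A2 (0.0572), cyp-35A5 (0.0783) and ugt-9 (0.0546).

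Calls among genes of gut defence were 12 falls and 1 rise in the lysozyme and C-type lectin lists together. All 9 lysozyme genes tested had a negative change (median -0.42): 0 rose, 3 fell and 6 did not pass. Lysozymes cut bacterial cell walls. The gene lys-4 had 3873, 3456 and 3509 in the culture and 6882, 6967 and 6194 in water. The groups lay 1.85-fold apart (log2 change -0.89 ± 0.068, adjusted p = 1.33e-06). For lys-2 the signals were 1141, 1275 and 1349 in the culture and 2566, 2284 and 2138 in water (log2 change -0.89 ± 0.099, adjusted p = 1.26e-04), and lys-6 had 149, 131 and 172 in the culture and 249, 240.5 and 275 in water (log2 change -0.76 ± 0.13, adjusted p = 0.00768). Each of these sets was free of overlap. For the sugar-binding C-type lectins, of 77 genes tested, 1 rose, 9 fell and 67 did not pass (median -0.19). The smallest adjusted p was that of clec-47, with 1455, 1499 and 1493 in the culture and 4043, 4164 and 3987 in water, 2 narrow groups 2.74-fold apart (log2 change -1.46 ± 0.098, adjusted p = 3.80e-07). Falls were also measured for clec-72 (at least 2.66-fold, adjusted p = 0.00524), clec-62 (log2 change -0.91 ± 0.13, adjusted p = 0.00175), clec-265 (log2 change -0.68 ± 0.083, adjusted p = 3.31e-04) and clec-65 (log2 change -0.67 ± 0.094, adjusted p = 9.97e-04). The only lectin rise was that of clec-74, given above. In the antimicrobial peptide and saposin-like list 1 of 32 genes passed, the saposin-like spp-23, lower in the culture (log2 change -0.55 ± 0.11, adjusted p = 0.0216). With 1 array left out the call ended for spp-23 (adjusted p = 0.131 without water replicate 1). Of 5 infection response genes tested, 1 rose, 1 fell and 3 did not pass. The fall was that of irg-8, with 1909, 1996 and 1690 in the culture and 3833, 3376 and 3354 in water (log2 change -0.92 ± 0.11, adjusted p = 2.88e-04), opposite to irg-4. Of 16 genes of the dod and dct classes, named for regulation by the transcription factor DAF-16, 1 fell and 15 did not pass. The fall was that of dod-19, with 1096, 1076 and 1144 in the culture and 3046, 2488 and 2248 in water (log2 change -1.22 ± 0.13, adjusted p = 9.12e-05). Its other probe set gave -0.595 and did not pass (adjusted p = 0.0736).

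Calls among gut proteases were all falls. Of 17 cathepsin B-like, cathepsin L-like and aspartic protease genes, 6 fell, 0 rose and 11 did not pass (35.3% lower, against 1.3% of all genes; median -0.26). The cathepsin B-like gene cpr-4 had 3498, 3875 and 3548 in the culture and 6617, 5886 and 6359 in water (log2 change -0.79 ± 0.081, adjusted p = 5.80e-05). The aspartic protease gene asp-12 had 761, 555 and 688 in the culture and 1451, 1554 and 1273 in water (log2 change -1.101 ± 0.13, adjusted p = 1.71e-04). For both, the culture arrays lay wholly below the water arrays. Falls were also found for cpr-3 (log2 change -0.86 ± 0.13, adjusted p = 0.00159) and for cpr-1, with 4302, 4225 and 4846 in the culture and 6410, 5472 and 6143 in water (log2 change -0.43 ± 0.079, adjusted p = 0.0109). For cpr-1 the Z-medium arrays, at 7513, 7638 and 6844, lay above both other groups, and culture minus Z-medium was -0.72 ± 0.079 (adjusted p = 1.22e-04). Of the intestine markers, 12 of 13 had a negative change (median -0.28): 2 fell, the intestinal acid phosphatase gene pho-1 (log2 change -0.62 ± 0.14, adjusted p = 0.0462) and the intestinal intermediate filament gene ifb-2 (log2 change -0.56 ± 0.13, adjusted p = 0.0490), and 1 rose, mtl-2. The intestine list summed to 22976 to 25365 on culture arrays and 22524 to 27298 on water arrays. These sums include mtl-2, with mean signals of 4719 in the culture and 2240 in water, so they do not show the level of the other members. The part of intestinal RNA in the gut gene values was not tested. Leaving out 1 array ended the call for cpr-1 (adjusted p = 0.0681 without water replicate 1), pho-1 (adjusted p = 0.212 without water replicate 1) and ifb-2 (adjusted p = 0.236 without water replicate 1). With the arrays scaled to a common median the adjusted p was over the threshold for cpr-1 (0.0639), pho-1 (0.0560) and ifb-2 (0.0646), and the gut protease list then had 3 falls. Without the 5 replicate 1 arrays 4 gut proteases fell, and the call ended for cpr-1 (0.0766) and pho-1 (0.0845).

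**Figure D4:**
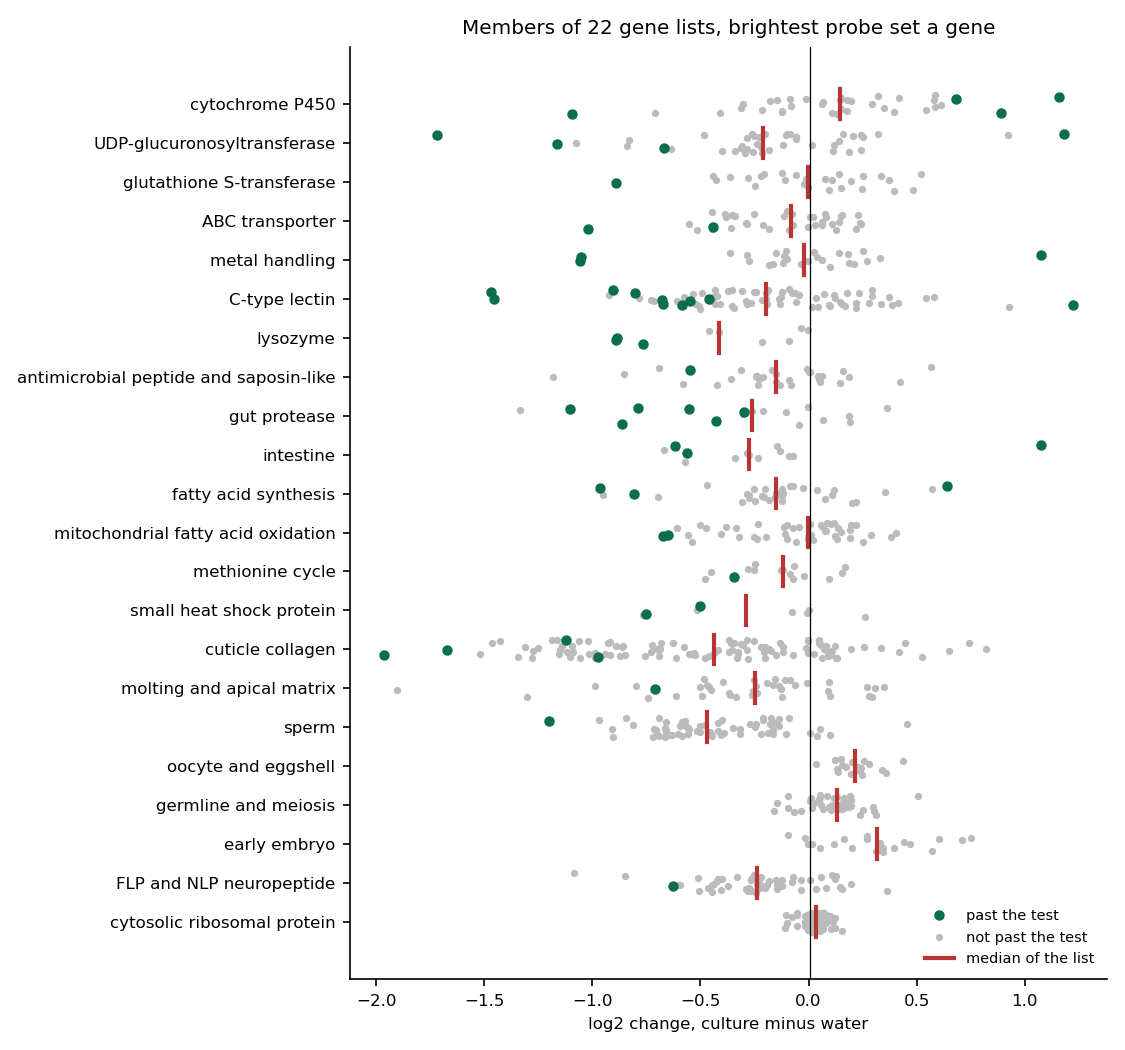
Log2 change of culture minus water (horizontal) for each member of 22 gene lists, a gene being represented by its brightest probe set. Green points passed the test, grey points did not, red bars are list medians and the vertical line is the median of all genes, 0.0058. Lysozyme, gut protease, cuticle collagen and sperm lists lie mostly to the left, and oocyte, germline and early embryo lists to the right with 0 members past the test.

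Lipid and amino acid metabolism showed single changes. Of 33 fatty acid synthesis genes, 1 rose, 2 fell and 30 did not pass (median -0.15). The stearoyl-CoA desaturase gene fat-7, whose enzyme makes oleic acid, had 1653, 1203 and 1237 in the culture and 2454, 2350 and 2278 in water. It was lower on all culture arrays (1.75-fold; log2 change -0.81 ± 0.12, adjusted p = 0.00194). The gene fat-3, for the delta-6 desaturase of polyunsaturated fatty acids, went the other way with 3020, 3030 and 3054 in the culture and 2088, 2080 and 1699 in water (log2 change 0.64 ± 0.11, adjusted p = 0.00760). A glycerolipid acyltransferase-like gene, acl-12, fell (log2 change -0.97 ± 0.19, adjusted p = 0.0155), while its other probe set gave -0.66 and did not pass (adjusted p = 0.178). In fatty acid breakdown, the peroxisomal acyl-CoA oxidase gene acox-1.5 fell (log2 change -0.75 ± 0.12, adjusted p = 0.00335), as did ech-7, of the enoyl-CoA hydratase family (log2 change -0.67 ± 0.098, adjusted p = 0.00159), and hacd-1, a hydroxyacyl-CoA dehydrogenase gene (log2 change -0.65 ± 0.097, adjusted p = 0.00185). These were 1 of 19 genes of the peroxisomal list and 2 of 47 of the mitochondrial list, with 0 rises in either. The lipid-binding protein gene lbp-6 fell (log2 change -0.39 ± 0.073, adjusted p = 0.0119), as 1 of 27, and the pyruvate kinase gene pyk-2 (log2 change -0.495 ± 0.097, adjusted p = 0.0165) as 1 of 19 glycolysis genes. In the methionine cycle mtrr-1, the reductase of methionine synthase, had 1979, 2089 and 1992 in the culture and 2516, 2613 and 2575 in water (log2 change -0.35 ± 0.078, adjusted p = 0.0372) and was the 1 of 15 that passed. Methionine synthase itself, metr-1, did not (-0.25, adjusted p = 0.189), nor did acdh-1, the propionate-responsive acyl-CoA dehydrogenase (-0.11, adjusted p = 0.497). Of 14 propionate and vitamin B12 genes 0 passed by limma, and 3 had an unadjusted p under 0.05, beside 2212 of all 13529 probe sets tested. The call ended with 1 array left out for acl-12 (adjusted p = 0.0956 without water replicate 1), lbp-6 (adjusted p = 0.0681 without culture replicate 2), pyk-2 (adjusted p = 0.0956 without culture replicate 3) and mtrr-1 (adjusted p = 0.140 without culture replicate 3). With the arrays scaled to a common median the adjusted p was over the threshold for lbp-6 (0.0974), pyk-2 (0.0735) and mtrr-1 (0.178), and without the 5 replicate 1 arrays for pyk-2 (0.0608) and mtrr-1 (0.0821).

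Cuticle, sperm, oocyte and embryo lists had medians away from that of all genes. The number of members past the test depended on the replicate 1 arrays for collagen and sperm genes. For oocyte and eggshell and for early embryo genes it was 0 with and without the 5 replicate 1 arrays. Without these 5 arrays 30 collagen genes fell and 1 rose, against 4 and 0 with all arrays, and 18 sperm genes fell, against 1, while over all genes the falls numbered 297, against 133. With all arrays, in 107 cuticle collagen genes the median log2 change was -0.44, with 84 negative, 4 that fell, 0 that rose and 103 that did not pass. Besides dpy-9 the falls were col-88, with 478, 306 and 276 in the culture and 1393, 1028 and 915 in water (log2 change -1.67 ± 0.35, adjusted p = 0.0249), dpy-3 (log2 change -1.12 ± 0.24, adjusted p = 0.0285) and dpy-8 (log2 change -0.97 ± 0.22, adjusted p = 0.0337). In the molting list ptr-23, a patched-related gene, fell (log2 change -0.71 ± 0.17, adjusted p = 0.0494) as 1 of 40 (median -0.25). The other probe sets of ptr-23 gave -0.404, -0.57 and -0.58 and did not pass (adjusted p = 0.104 to 0.195). Hedgehog-related genes, several of which act in the cuticle, had a median of -0.41 over 23, of which 0 passed by limma (5 fell without the replicate 1 arrays) and 11 were lower at an unadjusted p under 0.05. Of 64 sperm genes 59 were negative (median -0.47), and 1 fell, ssp-19, a sperm-specific gene (log2 change -1.199 ± 0.28, adjusted p = 0.0490). All 18 oocyte and eggshell genes were positive (median 0.21), as were 37 of 43 germline genes (median 0.13) and 19 of 22 early embryo genes (median 0.32). In these last 3 lists 0 passed by limma, while 8, 8 and 1 were higher at an unadjusted p under 0.05. Beside these counts and that of the hedgehog-related genes, 2212 of all 13529 probe sets tested had such a p, in either direction. The call ended with 1 array left out for col-88 (adjusted p = 0.134 without water replicate 1), dpy-3 (adjusted p = 0.158 without water replicate 1), dpy-8 (adjusted p = 0.131 without water replicate 1), ptr-23 (adjusted p = 0.261 without water replicate 1) and ssp-19 (adjusted p = 0.249 without water replicate 1). With the arrays scaled to a common median the adjusted p was over the threshold for ptr-23 (0.0518) and ssp-19 (0.0504), and without the 5 replicate 1 arrays for dpy-3 (0.0937).

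These lists also differed with replicate number. The summed sperm signal was 330262, 233774 and 202140 on culture replicates 1 to 3, against 372299, 288347 and 268180 on water replicates 1 to 3. In each group replicate 1 was the highest, and the groups overlapped across replicate numbers, while at each number the culture sum was below those of water and of the other 3 groups. For the oocyte and eggshell list the sums were 131848, 124480 and 127529 in the culture and 101040, 113358 and 115522 in water. There the culture arrays lay wholly above the water arrays. In the other 4 groups the median difference of replicate 1 from replicates 2 and 3 was 0.58 for sperm, 0.36 for cuticle collagen, -0.12 for oocyte and eggshell and -0.51 for early embryo genes on the log2 scale. Without the 5 replicate 1 arrays the medians of culture minus water were -0.46 for sperm, -0.39 for collagen, 0.16 for oocyte and 0.28 for embryo genes, each of the same sign as with all arrays. The part of germline content or stage in the gene changes above was not tested.

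**Figure D5:**
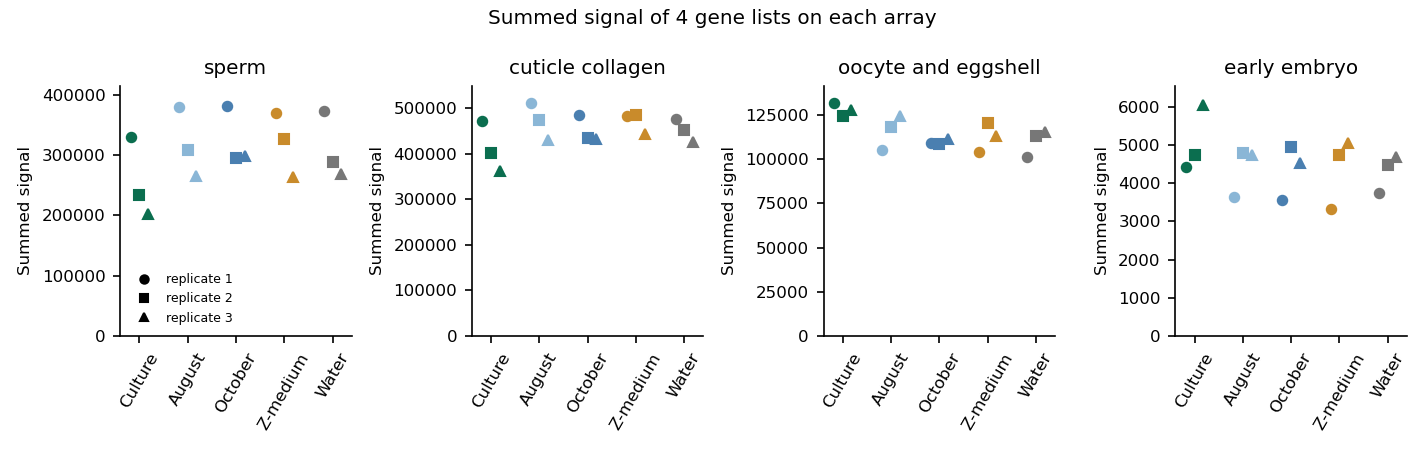
Summed signal (vertical, linear axis from 0) of the sperm, cuticle collagen, oocyte and eggshell, and early embryo lists on each array, by group, with circles, squares and triangles for replicates 1, 2 and 3. Replicate 1 has the highest sperm sum in every group, and the 3 culture arrays have oocyte and eggshell sums above those of the 3 water arrays.

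Of the 50 lists 30 had a member past the test, and those of stress, signalling and housekeeping described here held at most 2 each. Of 8 small heat shock protein genes 2 fell (25%, against 1.3% of all genes) and 0 rose. The falls were those of hsp-12.3 (log2 change -0.75 ± 0.17, adjusted p = 0.0370) and hsp-12.2 (log2 change -0.4999 ± 0.11, adjusted p = 0.0301). The methionine sulfoxide reductase gene msra-1, which repairs oxidised methionine, had 4809, 4193 and 5321 in the culture and 8521, 7978 and 8080 in water. It was the 1 of 22 thiol redox genes that passed (log2 change -0.79 ± 0.13, adjusted p = 0.00448). In the transthyretin-like list ttr-8 fell (log2 change -0.72 ± 0.16, adjusted p = 0.0307), among 54 neuropeptide genes nlp-9 (log2 change -0.63 ± 0.14, adjusted p = 0.0374) and among 107 nuclear hormone receptor genes nhr-115 (at least 1.31-fold, adjusted p = 0.0346). The other probe set of nlp-9 gave -0.12 and did not pass (adjusted p = 0.717). By limma 0 members passed among 10 larger chaperone genes, 5 superoxide dismutase and catalase genes, 74 cytosolic ribosomal protein genes and 33 proteasome genes. At an unadjusted p under 0.05 these lists held 1, 0, 0 and 5 higher genes and 0 lower ones. Over all 13529 probe sets tested the number was 2212, in either direction. Leaving out 1 array ended the call for hsp-12.3 (adjusted p = 0.182 without water replicate 1), hsp-12.2 (adjusted p = 0.153 without water replicate 1), ttr-8 (adjusted p = 0.177 without water replicate 1), nlp-9 (adjusted p = 0.170 without culture replicate 3) and nhr-115 (adjusted p = 0.145 without water replicate 2). With the arrays scaled to a common median the adjusted p was over the threshold for hsp-12.3 (0.0555), hsp-12.2 (0.0682), nlp-9 (0.0838) and nhr-115 (0.0643), and without the 5 replicate 1 arrays for hsp-12.3 (0.0938), ttr-8 (0.142) and nhr-115 (0.114).

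Against the lake samples, which have the same water control, the culture differed in 305 of 13529 probe sets (2.25%), 54 higher (0.399%) and 251 lower (1.86%) than the mean of August and October. The water values cancel in this contrast, which sets one exposure against the other, and the filtrates were given at different strengths (40% and 200% of their original content). The count rests partly on single arrays. Leaving out culture replicate 2 gave 120 and culture replicate 3 gave 150; leaving out August replicate 1 gave 177, August replicate 3 gave 472 and October replicate 1 gave 156. The rise of asah-1 also held against the lake mean (0.91 ± 0.11, adjusted p = 3.10e-04), as did the falls of clec-47 (-1.31 ± 0.085, adjusted p = 1.76e-07) and lys-4 (-0.899 ± 0.058, adjusted p = 1.76e-07). For fat-7 the difference from the lake mean was -1.13 ± 0.104 (adjusted p = 1.36e-05), with August signals of 4122, 3479 and 4171, the highest of any group. For fat-3 the difference from the lake mean was 0.36 ± 0.097 and did not pass (adjusted p = 0.0665, 95% interval 0.15 to 0.57). Y92H12BR.3 had 279, 137 and 186 in the culture, 186, 205 and 195 in August and 172, 155 and 194 in October, against 73.8, 95.5 and 108 in water. Culture replicate 1 lay above all 6 lake arrays and replicate 2 below them, and the difference was 0.067 ± 0.204 (adjusted p = 0.894, 95% interval -0.37 to 0.502).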

How the data were processed

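The deposited values are linear signal intensity per probe set from whole worm RNA, made by the authors with MAS5 in Affymetrix Expression Console 1.2.0.20, per the submitters' processing notes. The 2% trimmed mean computed from the values was 500.1 on every array. Signals were taken to log2 without an offset. Control probe sets (77) were left out, and 13529 probe sets whose log2 signal averaged no less than the 40th percentile of all (5.86) were tested. All 15 arrays entered 1 limma fit (version 3.58.1, R 4.3.3, eBayes with trend, leaving 10 residual degrees of freedom), with contrasts of group means and Benjamini-Hochberg adjustment within each contrast. The steps were tested on simulated data with independent errors on each array. That test does not cover the differences between replicate numbers seen on the real arrays. Errors of log2 changes are standard errors. With 3 arrays against 3, an exact permutation test cannot go below 0.1, so none is given. A fold is a bound where 1 group averaged under the filter, whose level then stood in for it. Gene names came from the array annotation, updated to current symbols: 20766 probe sets had 1 symbol, 20701 of these matched a current gene ID, 887 had several and 895 none. No genome build is named, so no coordinates are given. The genes named are, by rule, the 15 largest rises and falls (and 5 each against the lake mean) and up to 4 passing members of each of 50 lists, on the brightest probe set of a gene. This gave 76 genes, 74 of them past the test against water. Lists were counted on 10259 genes. For the largest rises and falls, the arrays of the groups compared also had to be free of overlap. A lack of overlap in those genes is therefore part of how they were picked and adds no support. The comparison, the lists and the tests were chosen with earlier results of these data known.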

Additional observations from a re-analysis of the deposited data

Results flagged for a closer look

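The effect of the culture differed from the mean effect of both lake samples on the same water control for the 10 genes below, tested by limma as the difference itself. They have the 5 largest measured log2 differences in each direction among genes past the test on their brightest probe set. Only genes whose culture arrays did not overlap the 6 lake arrays were taken. Higher in the culture than in the lake mean were pud-4 with a log2 difference of 2.78 ± 0.18, pud-3 with 2.497 ± 0.11, dhs-26 with 1.504 ± 0.22, T16G1.7 with 1.44 ± 0.302 and ugt-9 with 1.296 ± 0.19. Their adjusted p values were 1.76e-07, 4.72e-09, 0.00142, 0.0213 and 0.00138. The signal of pud-3 was 1508, 1953 and 1773 in the culture, against 264 to 336 (median 311) on the 6 lake arrays. Lower were W08E12.2 with -2.897 ± 0.35, ZC376.8 with -2.15 ± 0.52, warf-1 with -2.05 ± 0.15, T19C9.8 with -1.99 ± 0.29 and qua-1, a hedgehog-related molting gene, with -1.97 ± 0.4002. Their adjusted p values were 2.54e-04, 0.0419, 6.44e-07, 0.00125 and 0.0179, and all 5 have culture means below the filter, so their order is not set. As bounds the differences were at least 1.37-fold for W08E12.2, 1.45-fold for ZC376.8, 3.97-fold for warf-1, 1.38-fold for T19C9.8 and 2.04-fold for qua-1, beside 2.47-fold for clec-47, measured above the filter in both groups. For qua-1 the signals were 33.9, 52.7 and 15.1 in the culture, against 62.4 to 201 (median 109.9) on the 6 lake arrays. For ZC376.8 they were 53.5, 5.39 and 23.5 in the culture, a wide spread, against 66.3 to 121 (median 81.8) on the lake arrays. Against water ZC376.8 and qua-1 did not pass (adjusted p = 0.131 and 0.0558). The filtrates differed in strength, so a difference between culture and lake values is also one between doses.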

How the results depend on the processing

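The log2 changes of the named genes against water kept their sign under every setting tried, while list medians near 0 did not: that of cytosolic ribosomal protein genes was 0.036 with all arrays and -0.074 without the replicate 1 arrays, and that of ABC transporters -0.083 and, with median scaling, 0.0089. Culture minus water gave 199 probe sets, and 132 (94 lower) with the arrays scaled to a common median, 119 (92 lower) from the culture and water arrays alone, and 415 (372 lower) without the 5 replicate 1 arrays. Other choices (quantile normalization, an offset of 16, no filter, a filter at the 60th percentile, no intensity trend) kept it between 161 and 188. With replicate number as a block it was 1286 (253 higher and 1033 lower), with all 199 among them, and the count against the lake mean was 1449. With the block 51 of 107 collagen and 37 of 64 sperm genes were lower, beside 830 of all 10259 genes. The labels do not say that a number marks a shared batch. Same-numbered deviations correlated at 0.33, -0.083 and 0.21 between culture and water, 0.35, 0.037 and 0.35 between culture and August, and 0.34, 0.19 and 0.22 between culture and October. Every pair was over 0.1 for October alone, and the main fit did not take the numbers as pairs. For replicate 1 all 3 values were 0.33 to 0.35, so whether the numbers mark pairs is not settled by these values. With 1 array left out the count was 84 to 191, with 24 to 32 higher and 60 to 161 lower, and the count against the lake mean, 305 with all arrays, was 120 to 472, or 551 without the 5 replicate 1 arrays. Of the 199, 69 passed with each of the 6 arrays left out and 0 changed sign. Of the 74 named genes past the test 40 kept their call in all 6 of these fits, 24 lost it with the culture and water arrays alone, 16 without the replicate 1 arrays, 15 under median scaling, 13 with no filter, 13 with no intensity trend, 7 under quantile normalization, 3 with the offset and 0 with the block. For mtl-2 no setting tried ended the calls of Z-medium minus water or culture minus Z-medium. No background level comes with the signals, so folds of genes with a group mean under 57.9 are given as bounds.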

Other observations

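The genes here were chosen from the 199 calls after their values were seen and are given as values only. The DNase II gene nuc-1, which degrades DNA of engulfed cells and food, had 2837, 2390 and 2597 in the culture and 1649, 1907 and 1673 in water (log2 change 0.58 ± 0.092, adjusted p = 0.00319). The cathepsin Z-like gene cpz-1 had 5967, 6161 and 6075 in the culture and 4427, 4383 and 4588 in water (log2 change 0.44 ± 0.068, adjusted p = 0.00265), and the acid phosphatase gene pho-11 had 2190, 2021 and 1806 in the culture and 1234, 1123 and 1085 in water (log2 change 0.803 ± 0.104, adjusted p = 5.37e-04). For all 3 the culture arrays lay above the water arrays. Lower in the culture were lgmn-1, a legumain-like protease gene, with 477, 588 and 588 in the culture and 793, 1127 and 866 in water (log2 change -0.74 ± 0.14, adjusted p = 0.0119), and asp-3, an aspartic protease gene counted above, with 7845, 8175 and 7453 in the culture and 9490, 9838 and 9542 in water (log2 change -0.299 ± 0.061, adjusted p = 0.0214). With 1 array left out the call ended for lgmn-1 (adjusted p = 0.0615 without water replicate 2) and asp-3 (adjusted p = 0.1003 without culture replicate 3).

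The sodium-proton exchanger gene nhx-2, of the gut apical membrane, had 340.5, 284 and 268 in the culture and 453, 465 and 457 in water (log2 change -0.63 ± 0.13, adjusted p = 0.0286). The intermediate filament gene ifd-2 had 326, 246 and 267 in the culture and 499, 491 and 439.9 in water (log2 change -0.78 ± 0.11, adjusted p = 0.00104), and the trehalase gene tre-3 had 307, 335 and 319 in the culture and 511, 463 and 433 in water (log2 change -0.55 ± 0.11, adjusted p = 0.0246). Culture and water arrays did not overlap in any of them. Of genes with a role in dividing cells, zen-4, for a kinesin of cytokinesis, rose (log2 change 0.43 ± 0.094, adjusted p = 0.0294), as did mpk-1, for an ERK-type kinase that acts in the germline (log2 change 0.33 ± 0.077, adjusted p = 0.0497). The other probe set gave -0.012 for mpk-1 (adjusted p = 0.970), 0.23 for zen-4 (adjusted p = 0.411) and -0.596 for tre-3 (adjusted p = 0.228). The call ended with 1 array left out for nhx-2 (adjusted p = 0.140 without culture replicate 3), tre-3 (adjusted p = 0.144 without water replicate 1), zen-4 (adjusted p = 0.168 without water replicate 1) and mpk-1 (adjusted p = 0.217 without water replicate 1).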
